A study of Mus musculus with 8 samples.

Results

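The genes described here are the TSH receptor and 9 genes of the cAMP pathway that it drives: Tshr, Gnas, Adcy6, Adcy9, Pde4b, Pde4d, Pde8b, Pde10a, Prkar1a and Crem, listed in the table in capitals as TSHR, GNAS, ADCY6, ADCY9, PDE4B, PDE4D, PDE8B, PDE10A, PRKAR1A and CREM. They were chosen by symbol, and all 10 were among the 16119 rows of the deposited table of normalized counts, a read count per gene divided by a size factor of its library. All 10 were also among the 14703 genes tested, which reached 10 normalized counts in 2 libraries or more. The table holds 8 bulk RNA libraries of mouse. Thyroid follicular cell organoids (TFCOs) of 2 lines, mThy14 and mThy16, gave an early-passage and a late-passage library per line, beside 2 thyroid and 2 lung tissues.

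All samples were labelled wild type and C57BL/6, and the methods give surplus material of female mice as the source of the organoids. A TFCO line was grown from the digested thyroid of a single mouse, so that its early and late libraries are not separate animals, and the labels do not say whether the tissues came from the same mice. The expansion medium listed in the labels held 1 µM forskolin, which activates adenylate cyclase directly, together with EGF, FGF10, R-spondin 3 and the TGF-beta receptor inhibitor A83-01. It listed no TSH. The labels give no age and name no treatment. The follicular cell markers Tg and Pax8 were at 9532 and 3925 normalized counts or more in every TFCO library and at 1526000 and 5714 or more in both thyroid tissues, whereas lung had Tg at 27.6 and 263 and Pax8 at 0.

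TSH is the pituitary hormone that controls the thyroid. Its receptor couples mainly to the stimulatory G protein, whose alpha subunit activates adenylate cyclase, and the cAMP formed releases the catalytic subunits of protein kinase A from their regulatory subunits. The kinase phosphorylates CREB, which binds cAMP response elements in promoters, while phosphodiesterases degrade cAMP. In follicular cells this route raises iodide uptake, hormone synthesis and growth.

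Between 9755081 and 16904865 reads per library lay on genes. Beside their groups the libraries fell into 2 sets: 44 genes had no count in either lung or in thyroid tissue 2 while all TFCO libraries and thyroid tissue 1 reached 50 or more, and 16 genes showed the reverse. Thyroid tissue 1 is therefore the only tissue in the set of the TFCOs, and the other tissue shares its set with the lungs. Tissue and set cannot be told apart where TFCOs are compared with lung. In bulk RNA, fewer cells of a type and less RNA per cell cannot be told apart either. Differences below are on log2(normalized counts + 1), from limma fits across all genes tested with Benjamini-Hochberg adjustment, and are followed by a standard error (SE). For TFCOs against a tissue, each line entered as the mean of its passages, which left 2 lines against 2 tissues.

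**Figure D1:**
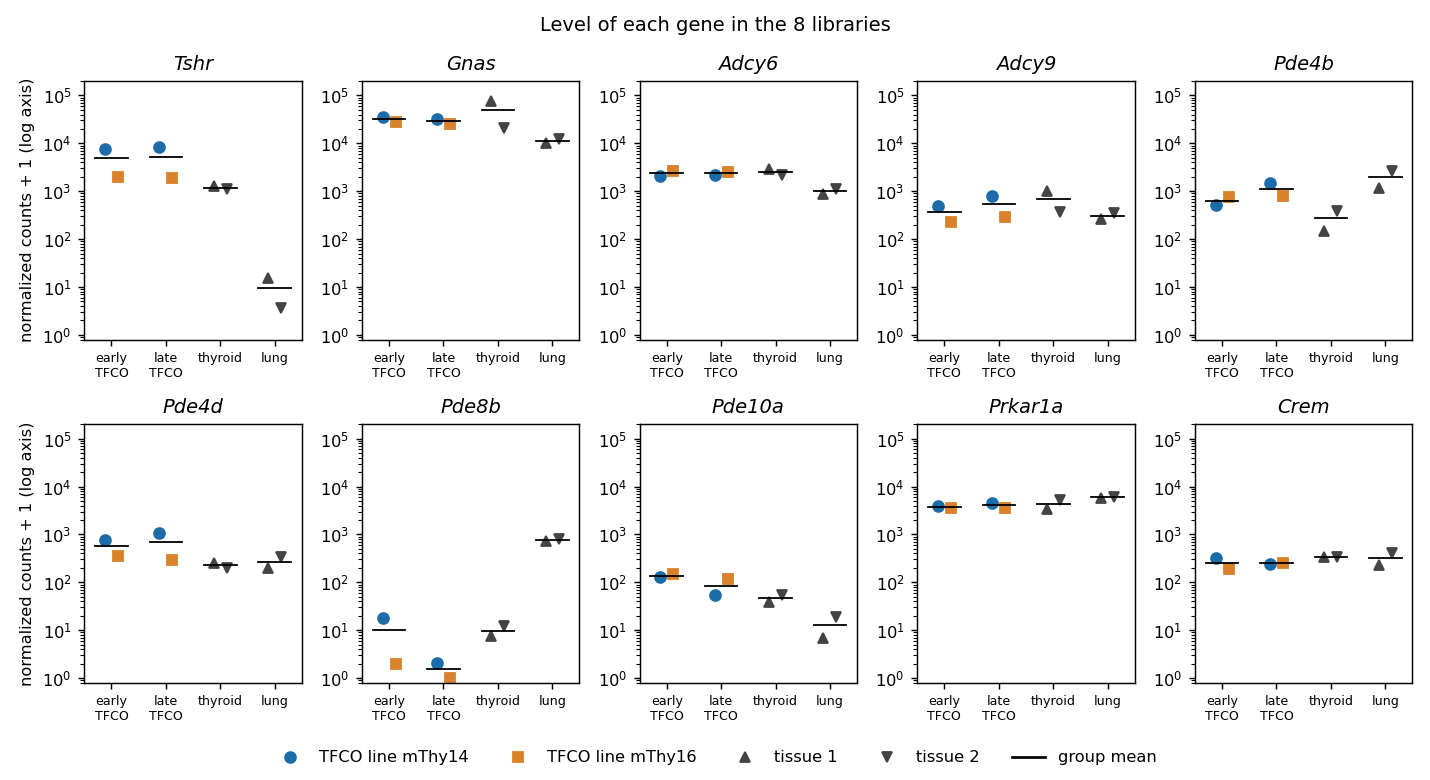
Normalized counts + 1 on a log axis for each gene in the 8 libraries, by group, where circles and squares are TFCO lines mThy14 and mThy16, upward and downward triangles are tissues 1 and 2, and bars are group means. Tshr lies between 1087 and 8582 in TFCO and thyroid libraries and at 14.2 and 2.70 in lung. Pde8b is at 16.9 or less in TFCO and thyroid libraries, which overlap, and at 715 and 812 in lung.

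Tshr encodes the receptor itself (chr12:91384563-91549808, plus strand, GRCm38). It was highest in TFCOs of mThy14, with 7739 normalized counts at early and 8582 at late passage, against 1963 and 1882 in mThy16. The thyroid tissues had 1287 and 1087, and the lungs 14.2 and 2.70, which are 17 and 4 reads. Every TFCO library was thus above both thyroid tissues and every thyroid library far above lung, with no overlap between these groups. TFCOs were 1.74 higher than thyroid tissue on the log2 scale (SE 0.86), which did not pass the test (adjusted p = 0.327, limma). The 95% interval of this difference ran from -0.29 to 3.78, and the difference was 1.62 against thyroid tissue 1, in the same set, and 1.86 against tissue 2. Between TFCOs and lung Tshr differed by 9.04 (SE 0.86, adjusted p = 0.00154), and between thyroid tissue and lung by 7.30 (SE 0.86, adjusted p = 0.00779). With so few reads in lung the size of both depends on the pseudocount, and they were 7.82 and 6.09 when 10 was added in place of 1.

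Gnas encodes the stimulatory G protein alpha subunit, and is an imprinted locus with several first exons, which a value per symbol does not separate (chr2:174284320-174346744, plus strand). TFCOs of mThy14 had 36195 normalized counts at early and 32132 at late passage, and those of mThy16 had 28334 and 25619. Thyroid tissue 1 had 78366, thyroid tissue 2 had 20682, and the lungs had 10297 and 12137. The thyroid tissues therefore lay on either side of the TFCOs and were 3.79-fold apart, which was larger than any difference between TFCO libraries. All TFCO and thyroid libraries were above both lungs, but neither difference passed the test: it was 1.44 for TFCOs (SE 0.82, adjusted p = 0.209) and 1.85 for thyroid tissue (SE 0.82, adjusted p = 0.239). Against thyroid tissue the TFCO difference was -0.41 (SE 0.82, adjusted p = 0.791), with -1.37 against tissue 1 and 0.55 against tissue 2.

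Adcy6 and Adcy9 encode membrane adenylate cyclases, the enzymes that form cAMP. Adcy6 (chr15:98589973-98610076, minus strand) varied little across the TFCO and thyroid libraries. mThy14 had 2058 normalized counts early and 2144 late, mThy16 had 2690 and 2569, and the thyroid tissues had 2899 and 2143. Both lungs were lower, at 878 and 1116. TFCOs differed from thyroid tissue by -0.09 (SE 0.35, adjusted p = 0.907), with a 95% interval from -0.92 to 0.75, and were higher than lung by 1.25 (SE 0.35, adjusted p = 0.0453). For thyroid tissue against lung the difference was close in size, 1.33, but did not pass (SE 0.35, adjusted p = 0.0763). Adcy9 (chr16:4287529-4420498, minus strand) stood at 496 early and 776 late in mThy14, at 231 and 290 in mThy16, at 994 and 370 for thyroid tissue and at 258 and 353 for lung. TFCO values spanned those of thyroid tissue 2 and of both lungs, and no comparison of Adcy9 passed, with adjusted p of 0.598 against thyroid tissue and 0.634 against lung.

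Of the 4 phosphodiesterase genes, Pde4b and Pde4d encode cAMP-specific enzymes that protein kinase A itself phosphorylates. Pde4b (chr4:102087543-102607259, plus strand) had 509 normalized counts early and 1461 late in the mThy14 libraries, and 754 and 777 in those of mThy16. It was lower in both thyroid tissues, at 150 and 391, and highest in lung among the tissues, at 1193 and 2704. Every TFCO library was above both thyroid tissues, with a difference of 1.74 (SE 0.58, adjusted p = 0.173, limma), and the 95% interval from 0.38 to 3.10 holds for this gene taken alone. It was 2.43 against thyroid tissue 1 and 1.05 against tissue 2. Thyroid tissue was lower than lung by 2.88 (log2 difference -2.88, SE 0.58, adjusted p = 0.0348), while TFCOs overlapped lung (-1.14, SE 0.58, adjusted p = 0.165).

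Pde4d (chr13:108449948-109953461, plus strand) followed the line of the organoids. mThy14 had 781 and 1084 normalized counts at early and late passage, and mThy16 had 356 and 285. Thyroid tissue had 248 and 200, lower than every TFCO library, and lung had 200 and 329, which overlapped mThy16. The difference between TFCOs and thyroid tissue was 1.28 (SE 0.59, adjusted p = 0.302), with 1.12 against tissue 1 and 1.43 against tissue 2.

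Pde8b encodes a cAMP-specific phosphodiesterase of high affinity that is best known from the human thyroid and adrenal (chr13:95024454-95250336, minus strand). In these mouse libraries it was close to 0 outside lung. mThy14 had 16.9 normalized counts early and 1.04 late, from 12 reads and 1 read, and mThy16 had 0.99 and 0, from 1 read and none. Thyroid tissue had 6.53 and 11.1, from 6 and 12 reads, against 715 and 812 in lung. Both lungs were far above all other libraries, and TFCOs overlapped thyroid tissue. The log2 difference from lung was -8.03 for TFCOs (SE 0.99, adjusted p = 0.00389) and -6.32 for thyroid tissue (SE 0.99, adjusted p = 0.0184). Since Pde8b had so few reads, the size of these differences depends on the pseudocount, and TFCOs differed from lung by -5.84 when 10 was added in place of 1.

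Pde10a encodes an enzyme that hydrolyses both cAMP and cGMP and is best known from the striatum (chr17:8525372-8986648, plus strand). Its level was low throughout. mThy14 had 128 normalized counts early and 53.1 late, mThy16 had 146 and 115, the thyroid tissues had 37.0 and 54.4, and the lungs 5.86 and 18.2. The late mThy14 library overlapped thyroid tissue, and all 4 TFCO libraries were above lung. TFCOs exceeded lung by 3.18 (SE 0.88, adjusted p = 0.0428), and the difference from thyroid tissue was 1.19 (SE 0.88, adjusted p = 0.468).

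Prkar1a encodes the type I alpha regulatory subunit of protein kinase A, which holds the kinase inactive until cAMP binds (chr11:109649405-109669656, plus strand). It had the smallest SD relative to its mean of the 10 genes over the 8 libraries, 23.8%. mThy14 had 3950 normalized counts early and 4528 late, mThy16 had 3623 and 3521, the thyroid tissues had 3346 and 5178, and the lungs 5889 and 6013. Both lungs were above all other libraries, but the log2 difference of TFCOs from lung did not pass the test (-0.61, SE 0.40, adjusted p = 0.268). Crem encodes a CREB family factor whose early repressor form is itself induced by cAMP, and a value per symbol does not separate that form. It was at 316 early and 243 late in mThy14, at 184 and 252 in mThy16, at 335 and 333 for thyroid tissue, and at 232 and 415 for lung. All TFCO values were below both thyroid tissues, with a log2 difference of -0.45 that did not pass (SE 0.46, adjusted p = 0.585).

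Late TFCOs were compared with early TFCOs to ask whether culture moved these genes. None of the 10 was called, and the background was 0% of 14703 genes, with 166 genes (1.13%) at an unadjusted p under 0.05 in the same limma fit. Pde4b was higher and Pde10a lower in both late libraries than in both early ones, so that 2 of 10 genes had groups that did not overlap, against 23.3% of all genes (11% higher, 12.4% lower). The Pde4b difference of 0.78 (SE 0.60) came from mThy14, where late minus early was 1.52, against 0.04 in mThy16. Pde10a differed by -0.79 (SE 0.85), and its adjusted p was 1, like that of the other 9 genes. For Tshr the difference was 0.04 (SE 0.94), with a 95% interval from -2.11 to 2.20. With the line as a block, which compares each late library with the early one of its own animal, no gene was called either.

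For Tshr, Adcy9 and Pde4d the lines differed by more than the passages did. Tshr was 3.94-fold higher in mThy14 than in mThy16 at early and 4.56-fold higher at late passage. Adcy9 was higher in mThy14 by log2 differences of 1.10 and 1.42, and Pde4d by 1.13 and 1.92. Pde8b also met the mark of a 2-fold higher level at both passages, but on at most 12 reads. These 4 of 10 genes stand against 6.32% of all genes that were 2-fold or more higher in mThy14 at both passages, and none of the 10 was 2-fold lower at both, against 7.96% (14.3% in either direction). A line is a single animal, so this is a description of 2 lines and was given no test. In the wider pathway list 11 of 89 other genes were 2-fold higher in mThy14 at both passages and 2 were lower. Among the 11 were the cAMP-induced genes Nr4a1, Nr4a2, Nr4a3 and Areg, 4 of 10 such targets in the list. Another target, Dusp1, was lower in mThy14 at both passages, with its values given below. It was not 2-fold lower at both, and 0 of the 10 targets were. Nr4a2, an orphan nuclear receptor of the immediate early kind, had 2115 and 2614 normalized counts in mThy14 and 987 and 929 in mThy16. Nr4a3 had 661 and 566 against 96.1 or less, and Areg, an EGF receptor ligand, 543 and 376 against 154 and 151.

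**Figure D2:**
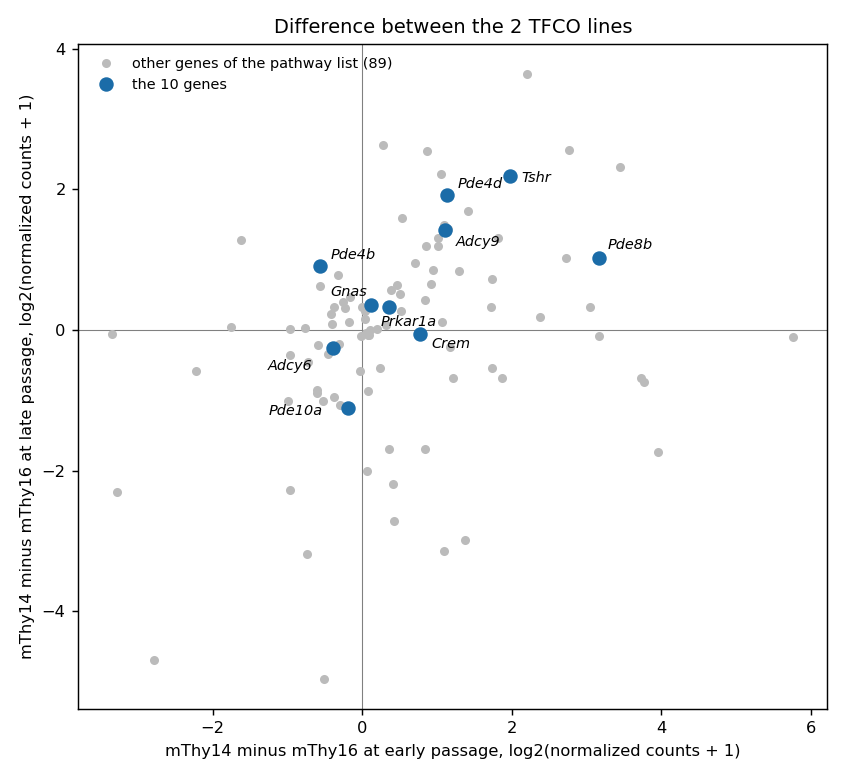
Difference between lines mThy14 and mThy16 in log2(normalized counts + 1), at early passage on the horizontal and at late passage on the vertical axis, for the 10 genes (large points) and 89 other genes of the pathway list (small points). Tshr, Adcy9, Pde4d and Pde8b lie at 1 or above on both axes, and Gnas, Adcy6 and Prkar1a lie close to 0.

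Some markers of cell type differed between the lines as well. Of 8 follicular markers, 6 were 2-fold or more higher in mThy14 at both passages, and their summed level was 168016 and 98893 normalized counts in mThy14 against 25430 and 20276 in mThy16, most of it Tg. The simple epithelial keratins Krt8 and Krt18 were 2-fold or more lower in mThy14 at both passages, whereas the other pan-epithelial markers did not share this direction: Epcam differed by 1.01 early and 0.65 late (log2, mThy14 minus mThy16) and Cdh1 by -0.28 and 0.28. Among the alveolar and airway markers, Foxj1, of ciliated cells, was at 35.1 and 442 normalized counts in mThy14 against 6122 and 6016 in mThy16, and Ager was higher in mThy14 by 1.87 and 2.71 on the log2 scale. Ager was also at 20265 and 15011 in the thyroid tissues. Sftpc and Scgb1a1 were at 266 and 23.9 or less in every TFCO library, against 180943 and 261418 or more in lung. Sftpc was lower in mThy14 early (-2.19) and higher late (4.21), and Scgb1a1 was higher at both passages (0.66 and 0.91). Summed leukocyte markers were lowest in early mThy14, at 47.8, and reached 977 and 1040 in mThy16, of which Cd14 alone gave 899 and 978, while Ptprc was at 25.7 or less in every TFCO library. The part of these markers in the line difference was not tested.

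Thyroid tissue was the reference for TFCOs. None of the 10 genes passed the test, against 3.65% of all genes (0.599% higher and 3.05% lower in TFCOs), and 1 of 10, Pde4b, had an unadjusted p under 0.05, against 18.6% of all. Without overlap, Tshr, Pde4b and Pde4d were higher and Crem lower in TFCOs, 4 of 10 genes against 34.5% of all (17.2% higher, 17.3% lower). Tshr was also the 1 gene of 10 with every TFCO library above all 4 tissue libraries, against 13.2% of all genes. The median difference of the 10 genes was -0.09, and that of all genes tested was 0.05. Gnas, Adcy6, Adcy9 and Prkar1a were on different sides of 0 against the 2 tissues, so that the choice of tissue sets the sign. Thyroid tissues 1 and 2 were at least 2-fold apart for 45.6% of all genes.

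**Figure D3:**
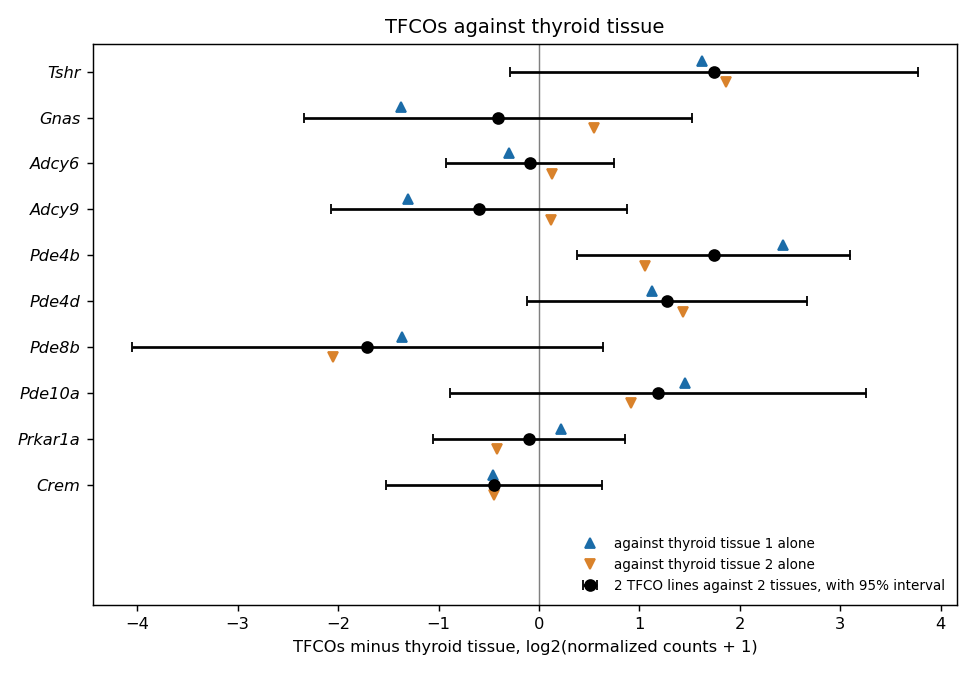
Difference of TFCOs from thyroid tissue in log2(normalized counts + 1) for each gene, as the limma estimate from 2 lines and 2 tissues with its 95% interval (circles), and against thyroid tissue 1 or 2 alone (triangles). Only the Pde4b interval, from 0.38 to 3.10, does not reach 0, and no adjusted p was under 0.05.

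Genes of other cells in the gland differed between these groups. All 5 fibroblast, 3 of 3 C cell, 5 of 6 skeletal muscle and 4 of 6 endothelial markers were called lower in TFCOs, beside 3.05% of all genes. So were 2 of 3 parathyroid, 2 of 5 adipocyte, 2 of 6 leukocyte and 1 of 5 mural and smooth muscle markers. No marker of these lists was called higher, though the mural marker Cnn1 was higher without overlap (2.10). Pth had 8411 and 25341 normalized counts in thyroid tissue and 0 in every TFCO library. The summed fibroblast markers were 76.0 to 223 normalized counts in TFCOs against 22302 and 21177 in thyroid tissue, the C cell markers 35.7 to 95.6 against 44650 and 74472, and the muscle markers 2016 to 2695 against 42263 and 133218. Most of the muscle sum in TFCOs was Acta1, at 1796 to 2442, and the other muscle markers were each at 138 or less there. Pan-epithelial markers were 18609 to 29603 in TFCOs against 9884 and 17294, with none of 4 called. Of 8 follicular markers, Dio1 was called lower in TFCOs (-5.82, adjusted p = 0.0246, limma), beside 3.05% of all genes. With Dio1, Tg (-5.87) and Slc5a5 (-4.08) were lower without overlap, 3 of 8 beside 17.3% of all genes. The remaining follicular markers overlapped, and the median difference of the 8 was -1.69. A single fibroblast marker and a single parathyroid marker were at 0 in all 4 TFCO libraries. The part of these cells and markers in the values of Tshr, the phosphodiesterases and the other genes was not tested.

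Against lung, 4 of the 10 genes passed the test for TFCOs: Tshr, Adcy6 and Pde10a were higher and Pde8b was lower. This stands beside 23.4% of all genes (9.83% higher, 13.5% lower). Groups did not overlap for 6 of 10 genes, against 67.7% of all (34.4% higher, 33.3% lower), and the medians were 0.74 for the 10 genes and 0.05 for all. For thyroid tissue against lung, Tshr passed as higher and Pde4b and Pde8b as lower, 3 of 10 beside 6.05% of all genes (2.89% higher, 3.16% lower), and 8 of 10 had groups that did not overlap, beside 53.8% (26.2% higher, 27.5% lower). Medians were 0.55 and 0.03. Thyroid tissue 2 alone, in the set of the lungs, differed from them by 7.18 for Tshr, -2.20 for Pde4b and -5.98 for Pde8b, and none of the 3 was called in that fit (adjusted p = 0.161, 0.262 and 0.0737). Lung had more endothelial marker RNA, 25563 and 43927 normalized counts against 186 to 532 in TFCOs and 2636 and 8349 in thyroid tissue, and more leukocyte marker RNA, 5100 and 3410. Their part in the levels of Pde4b and Pde8b was not tested.

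Most of these calls against lung rest on both lung tissues. Without lung tissue 1 or 2 the TFCO calls of Adcy6 (adjusted p = 0.260 and 0.185), Pde8b (0.0611 and 0.0728) and Pde10a (0.246 and 0.148) did not pass, and Pde10a also failed without early mThy14 (0.0704) and Adcy6 without late mThy14 (0.0522). The Tshr call of TFCOs over lung passed in all 15 alternatives, with adjusted p up to 0.0179. Between thyroid tissue and lung, Pde4b was not called in 7 of 16 alternatives, which include leaving out thyroid tissue 1 (0.0892), lung 1 (0.135) or lung 2 (0.276), the replicate block (0.0701) and a fit of only the groups compared (0.113). Pde8b was not called in 4 of 16, among them without lung 1 or 2 (0.195 and 0.219) and with the block (0.0508), and Tshr in 2 of 16, one of them without lung 2 (0.0560).

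**Figure D4:**
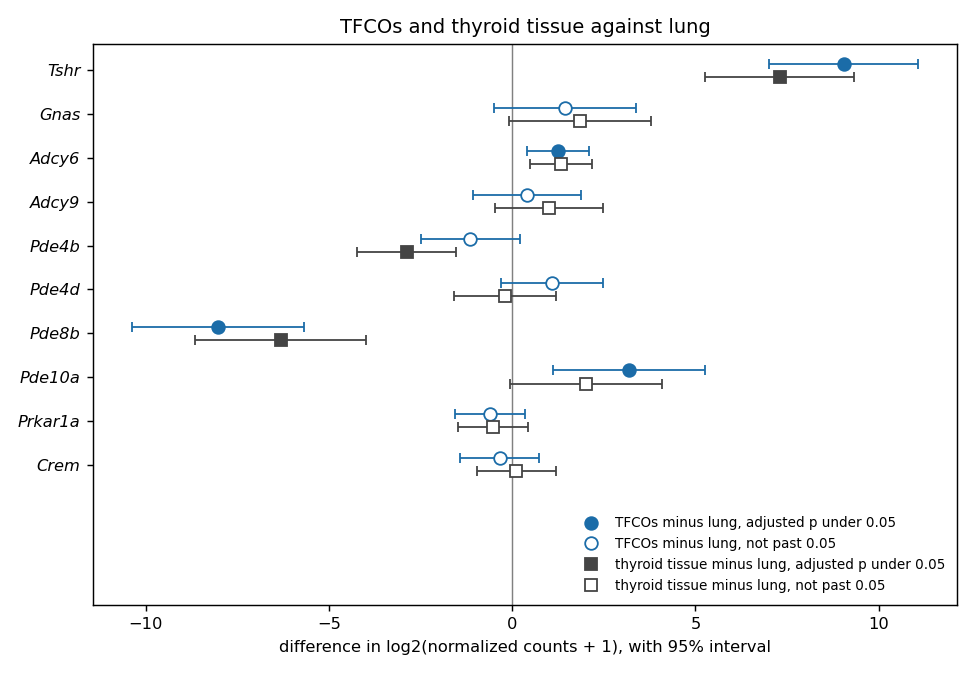
Difference from lung in log2(normalized counts + 1) with its 95% interval, for TFCOs (circles) and thyroid tissue (squares), filled where the adjusted p of limma was under 0.05. Tshr lies at 9.04 and 7.30 and Pde8b at -8.03 and -6.32, on opposite sides of 0 in both comparisons.

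To compare levels between genes, values were divided by the length of the merged exons of each gene (GENCODE M21). This scaling suits the full-length library kit of the methods, and not the 3′ counting that the labels describe. Among 10 adenylate cyclase genes, Adcy6 ranked first in TFCOs, at 349 normalized counts per kb ± 45.9 (SD, n = 4 libraries of 2 lines), and gave 54.7 to 77.5% of the summed cyclase level per kb. Adcy9 was second at 86.2 ± 47.5, and the next, Adcy5, was at 19.5. Thyroid tissue had the same first pair, with Adcy6 at 372 ± 78.9 and Adcy9 at 131 ± 84.9 (n = 2). In lung the order was Adcy4 at 262 ± 170, Adcy7 at 197 ± 8.97 and Adcy6 at 147 ± 24.8, and the spread of Adcy4 covers the level of Adcy7. The TFCO and thyroid libraries thus shared their leading cyclases, and lung led with others.

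The phosphodiesterases were ordered differently in each group. Per kb, TFCOs had Pde7a first at 282 ± 71.4, then Pde7b at 105 ± 59.7, Pde4b at 82.9 ± 38.7 and Pde4d at 52.2 ± 31.3, where the last 3 overlap within their SD. Pde10a was at 8.59 and Pde8b last of 15 at 0.80. Thyroid tissue had Pde8a first at 137 ± 1.22, followed by Pde1a at 65.4 ± 9.66, Pde7b at 61.2 ± 1.11 and Pde7a at 51.3 ± 6.74, of which Pde1a and Pde7b do not differ beyond their spread. Lung had Pde4b at 185 ± 101.2, Pde8b at 130 ± 11.6 and Pde8a at 118 ± 21.9, which overlap within their SD. For the G protein alpha subunits, TFCOs had Gnas and Gnai2, of the inhibitory kind, at nearly one level, 2733 ± 412 and 2728 ± 254 per kb. Thyroid tissue had Gnas at 4427 ± 3646 and Gnai2 at 1798 ± 1047, and lung had Gnai2 at 2044 ± 173 over Gnas at 1003 ± 116. The merged exons of Gnas pool its several first exons and span 11186 bases, against 3779 for Gnai2. The near equality in TFCOs and the order in lung depend on this divisor. Prkar1a was first or second of 9 protein kinase A genes in every group, at 904 ± 105 in TFCOs, 986 ± 300 in thyroid tissue and 1377 ± 20.3 in lung.

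**Figure D5:**
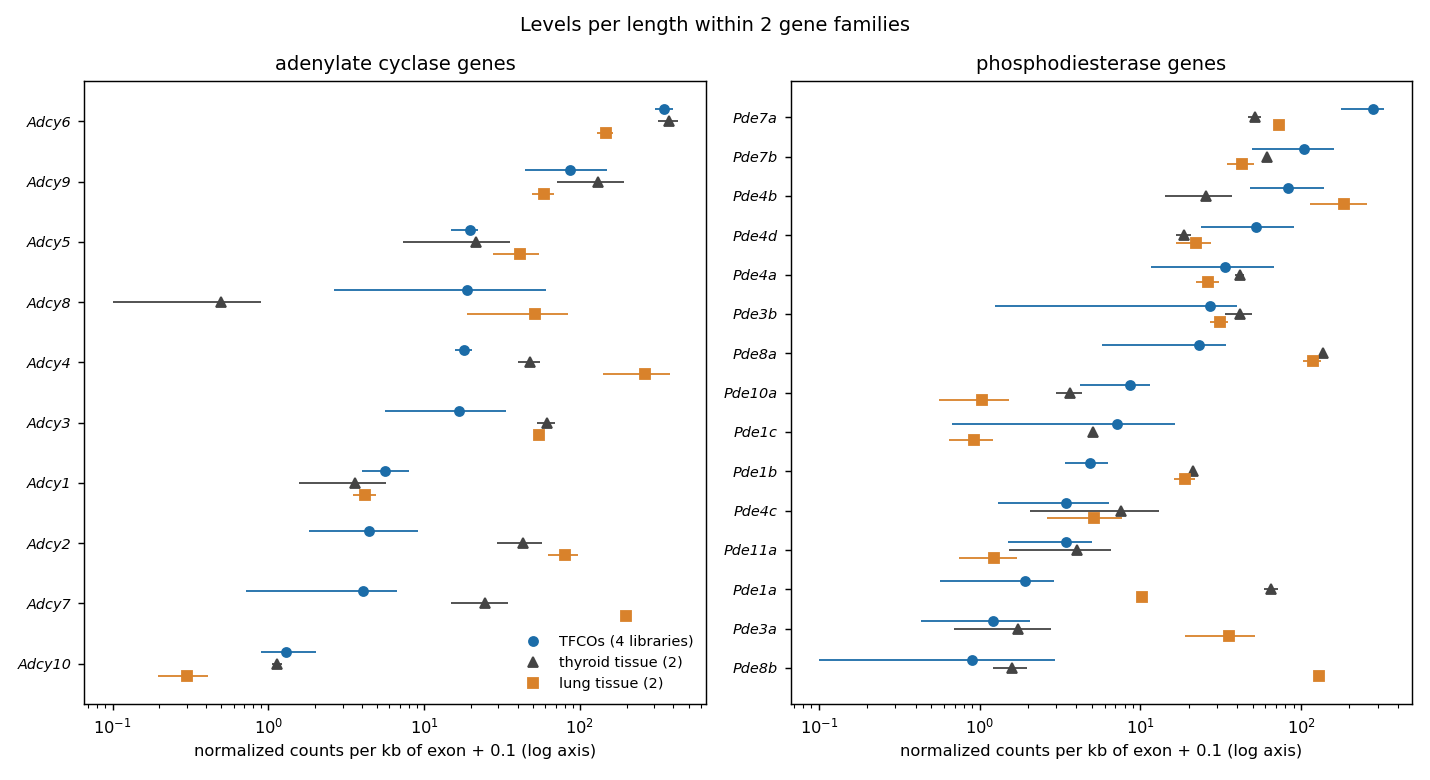
Normalized counts per kb of exon + 0.1, on a log axis, for 10 adenylate cyclase and 15 phosphodiesterase genes, as the mean (point) and range over libraries (line) in TFCOs, thyroid tissue and lung tissue. By mean, Adcy6 leads in TFCOs and thyroid tissue, and Pde7a, Pde8a and Pde4b lead the phosphodiesterases of TFCOs, thyroid tissue and lung, where the lung ranges of Pde4b and Pde8b overlap.

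The wider pathway list held 106 genes, of which 104 were in the table and 99 were tested, 89 of them beside the 10 genes. Against thyroid tissue 1 of the 89 was called higher in TFCOs and 6 lower, beside 0.599% and 3.05% of all genes. The higher gene was Pde7a, which encodes a cAMP-specific phosphodiesterase: mThy14 had 1366 normalized counts early and 2550 late and mThy16 had 2314 and 2497, against 434 and 360 for thyroid tissue and 529 and 607 for lung. All TFCO values were above all tissue values, by 2.42 over thyroid tissue (SE 0.34, adjusted p = 0.0142) and by 1.90 over lung (adjusted p = 0.0130). The call over thyroid tissue did not pass without thyroid tissue 2 (adjusted p = 0.0559), lung 1 (0.0610) or lung 2 (0.0631), nor against thyroid tissue 1 alone (0.334), a fit in which no gene passed.

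Lower in TFCOs than in thyroid tissue were 2 further phosphodiesterases, Pde1a, of the calcium and calmodulin dependent kind (log2 difference -5.26, adjusted p = 0.0157), and Pde8a (-2.82, adjusted p = 0.0250). Pde1a had 2.81 to 16.8 normalized counts in TFCOs against 434 and 352 in thyroid tissue, and Pde8a 22.9 to 138 against 557 and 550. The other 4 were Popdc2, a cAMP-binding membrane protein of muscle (-5.25, adjusted p = 0.0246), Rgs2, which limits G protein signalling (-3.60, adjusted p = 0.0133), the cyclase Adcy2 (-3.40, adjusted p = 0.0410) and the AP-1 gene Fosb (-2.83, adjusted p = 0.0201). Of 16 alternatives, Adcy2 was not called in 8, among them without late mThy14, and Pde1a, Popdc2, Rgs2 and Fosb were each not called in 5. None of these 5 genes passed without thyroid tissue 2, without lung 1, without lung 2 or against thyroid tissue 1 alone. Pde8a was not recomputed under these alternatives. Within phosphodiesterases 1 of 15 rose and 2 fell, and the other 12, with the 4 described above, did not pass. None of 8 CREB family genes, 9 protein kinase A genes, 9 G alpha genes, 10 A-kinase anchoring genes or 15 other receptors of the stimulatory G protein passed. The skeletal muscle and fibroblast markers given above moved in the same direction as these 6 genes, and their part was not tested.

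Against lung, 5 of the 89 genes were higher and 27 lower in TFCOs, beside 9.83% and 13.5% of all genes. The higher genes were Gipr, the receptor of the gut hormone GIP (4.72, adjusted p = 0.0282), Nr4a2 (3.52, adjusted p = 0.0162), Pde7a, the mitochondrial anchoring gene Akap1 (1.59, adjusted p = 0.0186) and Odc1, of polyamine synthesis (1.46, adjusted p = 0.0424). Among the 27 the largest differences were those of Calcrl, a receptor of adrenomedullin and CGRP (-10.37, adjusted p = 0.00145), Akap5 (-7.76, adjusted p = 0.00432), Popdc2 (-6.46, adjusted p = 0.00520), the cyclase Adcy7 (-6.01, adjusted p = 0.00224) and the GLP-1 receptor Glp1r (-5.47, adjusted p = 0.0293). Of these named genes, Calcrl was called in all 15 alternatives and the others were each not called in 1 to 5, always including the fit without lung 2. Of 15 other receptors of the stimulatory G protein tested, 9 were lower and Gipr higher in TFCOs than in lung, beside the same 13.5% and 9.83% of all genes. Gipr was at 22.4 to 107 normalized counts in TFCOs and at 0 and 2.70 in lung, so its difference rests on low counts. Thyroid tissue against lung gave 1 higher gene, Ppargc1a, a coactivator of mitochondrial genes (3.38, adjusted p = 0.0184), and 8 lower ones, among them Akap5 (-10.20, adjusted p = 0.00441), the cyclase Adcy8 (-6.89, adjusted p = 0.0270), Calcrl (-5.85, adjusted p = 0.0208) and Pde3a (-4.53, adjusted p = 0.0442), beside 2.89% higher and 3.16% lower of all genes. Pde3a was not called in 12 of 16 alternatives (adjusted p up to 0.405), Ppargc1a, Adcy8 and Calcrl in 5 each and Akap5 in 2, and none of these 5 passed without lung 1 or without lung 2. Calcrl is also a gene of endothelium, whose markers were higher in lung as given above.

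Of the hormone genes, Tshb and Cga, the subunits of TSH, were at 22.9 normalized counts or less in all 8 libraries and were not tested. Gpha2, a subunit of thyrostimulin, was at 3.96 to 15.7 in TFCOs, 4.35 and 0 in thyroid tissue and 0 and 3.37 in lung, and differed by 2.27 from thyroid tissue (adjusted p = 0.366) and by 2.42 from lung (adjusted p = 0.179). Its partner Gphb5 was at 9.90 or less in TFCOs and at 0 in the tissues, and was not tested. Of the other glycoprotein hormone receptors, Lhcgr and Fshr were at 8.71 and 21.9 or less.

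The genes whose levels followed Tshr most closely over the 8 libraries were Pax9 (Pearson r = 0.996), Slc14a2 (0.993), Epcam (0.991), Scg5 (0.991) and Trpm3 (0.990), on log2(normalized counts + 1). The 8 points share their library sets, and in all 5 genes, as for Tshr, the lungs were the 2 lowest libraries, so these are descriptions without a test. Slc14a2, a urea transporter gene, had 10853 and 6371 in early and late mThy14, 2048 and 1496 in mThy16, 546 and 764 in thyroid tissue, and 9.21 and 2.02 in lung. Scg5, a granin family chaperone, had 28611 and 34605 in mThy14 and 8459 and 7691 in mThy16, against 3402 and 2824 in thyroid tissue. Like Tshr, both were higher in mThy14 than in mThy16 and lower in thyroid tissue than in every TFCO library. Choosing them by correlation with Tshr over these same libraries favours such an order, so it is no separate finding.

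Promoters were searched for the cAMP response element, TGACGTCA, and for its half-site, TGACG, on both strands and from 250 bases before to 50 after each annotated start (RefSeq, GRCm38.p6). A half-site lies within every complete element and is counted there too. The complete element was in 1.79% of 32851 promoters and the half-site in 20.8%. RefSeq promoters were found for 7 of the 10 genes, and not for Tshr, Adcy6 or Crem. Prkar1a held the complete element, and Gnas, Adcy9, Pde4b, Pde8b and Prkar1a a half-site in at least 1 of their promoters, while Pde4d and Pde10a held none in theirs. Genes with several annotated starts had more chances to hold a match. In the wider list 83 genes had a promoter, 3 held the complete element (Areg, Dusp1 and Prkar1a) and 33 a half-site in at least 1 promoter, beside 2.03% and 23% of all 27025 genes. The windows of 30 bases below are shown because they hold a motif close before an annotated start in 4 of the genes, and the complete element in 2 induced targets of the list. The capitals mark the element or half-site, and each line is read 5′ to 3′ on the strand of the gene.
Prkar1a: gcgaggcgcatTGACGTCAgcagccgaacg
Areg: gggctggtccgTGACGTCAcgggcggtggc
Dusp1: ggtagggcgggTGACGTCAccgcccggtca
Gnas: aagaggttggggCGTCAtcaggctggttag
Pde4b: gatttggctgcaCGTCAattttctcatctg
Adcy9: cggacccggcggTGACGtgcgcgggccgcg

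The Prkar1a element begins 49 bases before an annotated start (chr11:109650889-109650918, plus strand), the Areg element 61 before (chr5:91139527-91139556, plus) and the Dusp1 element 143 before (chr17:26508597-26508626, minus). The half-sites begin 38 bases before the start for Gnas (chr2:174327699-174327728, plus), 34 for Pde4b (chr4:102421509-102421538, plus) and 24 for Adcy9 (chr16:4420505-4420534, minus). Of these genes, Prkar1a had the SD given above relative to its mean, Areg was 2-fold or more higher in mThy14 at both passages, and Dusp1, a phosphatase gene of the immediate early kind, had 1242 and 223 normalized counts in mThy14, 2076 and 2031 in mThy16, 1380 and 657 in thyroid tissue and 2793 and 2602 in lung. A match describes the letters only, and the table does not say which start was used.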

How the data were processed

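RNA of 8 mouse libraries was measured. The authors deposited 1 table of signal values per gene, namely normalized read counts, and named DESeq2 as their tool. The methods give stranded polyA libraries read from both ends, whereas the labels describe adapted CEL-Seq. The submitters' processing notes list BWA 0.6.2-r126 and the builds mm10 and hg38 without their roles. Each value was a whole multiple of a step per library (100% of values above 0, tolerance 0.1 of a step), which gave the reads per library. In early mThy16 the step was 0.990, so close to 1 that whole multiples tell less there. Having 2 samples in a group limits precision.

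limma 3.58.1 (R 4.3.3) was fitted to log2(normalized counts + 1), letting the variance follow the mean, and p was adjusted by Benjamini-Hochberg (called under 0.05), over 14703 of 16119 genes with 10 or more in at least 2 libraries. The passages were compared in 1 fit of 8 libraries, and the other comparisons used 6 samples, with line means for TFCOs. Early and late libraries of a line come from 1 animal, and their deviations from the group means correlated at 0.48. p-values measure the spread between these samples only, and permuting 2 against 2 exactly gives no two-sided p below 0.333. Planned count models were not run, because the values were not entered as counts. No stretch of 50 bases of a transcript of the 10 genes was shared with another gene of GENCODE M21, in which 15883 table symbols were found.

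The 10 genes, the pathway list and the marker lists were chosen with earlier results of these data known. Named were all 10 genes, up to 5 other pathway genes per direction and comparison (called, groups not overlapping, by size), and the 5 genes most correlated with Tshr. The result of 1 pathway gene that this rule selects is not reported here. Pde8a, Dusp1, Nr4a1, Nr4a3, Areg and the hormone and glycoprotein hormone receptor genes were named after their values were seen.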

Additional observations from a re-analysis of the deposited data

Results flagged for a closer look

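For 5 of the 10 genes the late TFCO library lay above the early one in a line and below it in the other, a difference between lines that was not tested. Late minus early on the log2 scale was 0.15 in mThy14 and -0.060 in mThy16 for Tshr, 0.059 and -0.066 for Adcy6, 0.47 and -0.32 for Pde4d, -0.38 and 0.45 for Crem, and 0.20 and -0.041 for Prkar1a. Each line has 1 library per passage, so no spread within a line is known.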

How the results depend on the processing

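Log2 differences under the alternatives were recomputed for the 10 genes. Outside the passage comparison they also covered the other pathway genes that the naming rule selected as called, so the sets of genes differ. Of these differences, 138 of 150 kept their direction and side of the threshold for late against early TFCOs, 218 of 256 for TFCOs against thyroid tissue, 261 of 300 for TFCOs against lung and 204 of 256 for thyroid tissue against lung, and 12, 5, 2 and 4 changed sign. None of the 10 genes was called between passages, or between TFCOs and thyroid tissue, under any alternative run. Genes called between TFCOs and thyroid tissue numbered 124 with only the compared groups fitted, 1322 with 4 TFCO libraries as separate samples and 0 against thyroid tissue 1 alone, beside 536. Of the 10 genes, 2 were called against lung with libraries scaled to the same total, beside 4, and all genes called were 6979 with the compared groups only and 6625 with separate libraries, beside 3435. Thyroid tissue against lung gave 277 genes with the compared groups only, 1 of the 10 and 167 genes with the tissue number as a replicate block, and 0 of the 10 and 252 genes with thyroid tissue 2 alone, beside 3 and 889. Tissue numbers mark no stated pairing, and same-numbered tissues deviated together at a correlation of -0.07. With the line as a replicate block, 0 of the 10 and 0 genes were called between passages.

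Leaving out a library in turn gave 0 to 2 genes called between passages, 153 to 4085 against thyroid tissue, 1 to 5 of the 10 and 248 to 6986 genes against lung, and 0 to 5 of the 10 and 58 to 4311 genes between thyroid and lung. Leaving out a TFCO library sets 1 line against 2 lines between passages, so that difference then includes part of the difference between lines. Signs changed between passages for Tshr (-1.05 to 1.14), Gnas (-0.34 to 0.018), Adcy6 (-0.20 to 0.19), Adcy9 (-0.22 to 1.20), Pde4d (-0.88 to 1.04), Crem (-0.36 to 0.42) and Prkar1a (-0.10 to 0.26). Against thyroid tissue they changed for Gnas (-1.37 to 0.55), Adcy6 (-0.30 to 0.13), Adcy9 (-1.31 to 0.12) and Prkar1a (-0.41 to 0.22), against lung for Crem (-0.76 to 0.073), and between thyroid and lung for Crem (-0.31 to 0.52) and Pde4d (-0.56 to 0.15). Prkar1a was 0.22 against thyroid tissue 1 alone. Quantile normalization moved the median of all genes from 0.05 to 0.17 against thyroid tissue and from 0.05 to 0.32 against lung, and turned Crem to 0.21 for TFCOs against lung and Pde4d to 0.018 for thyroid against lung, while equal totals turned Crem to -0.0060 for thyroid against lung. None of these was called, and the cause was not tested. With that normalization Adcy6 was not called over lung (adjusted p = 0.0639), nor with equal totals (0.0694). The planned count models were not run. Reads limit Pde8b outside lung and Tshr in lung.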
